A study of Homo sapiens with 9 samples.

Results

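The transcripts described here are those of 57 genes of ribosome biogenesis and RNA polymerase I, out of 60564 gene identifiers measured. They were taken by symbol, each symbol matched a single identifier, and they were placed in subgroups by the role of their proteins: 8 proteins of the box C/D and H/ACA small nucleolar ribonucleoproteins (snoRNPs), 19 of the small-subunit processome, 4 of late small-subunit maturation, 17 of large-subunit assembly, 3 multifunctional nucleolar proteins, and 6 subunits or factors of RNA polymerase I. RNA-seq had been performed on BxPC3, an established line of human pancreatic ductal adenocarcinoma cells. A first group of 3 libraries came from cells given WB436B, a small molecule that the labels name by this code alone, at 0.1 µM. A second group of 3 came from cells in which the transcription factor STAT3 had been targeted with small interfering RNA (siRNA), and 3 libraries of vehicle-treated cells served as the control of both. No non-targeting siRNA group is named in the labels, so transfection and loss of STAT3 cannot be told apart, and the time under either treatment is not given in the sources used here. All libraries come from 1 cell line, the labels call the replicates biological without naming separate cultures, and p-values therefore measure the spread between these libraries.

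Ribosomes are assembled in the nucleolus. RNA polymerase I transcribes a long precursor RNA, which snoRNPs modify at selected bases, the small-subunit processome folds and cleaves, and separate sets of assembly factors carry onward as the precursors of both ribosomal subunits. Production of these factors is known to follow cell growth, and many of their genes are textbook targets of the MYC transcription factor.

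Values are FPKM, fragments scaled to the length of the transcript and to the mapped total of the library, so that levels can be compared between genes. Estimated depth was 16400000 to 20400000 fragments per library under WB436B, 17000000 to 19100000 after the siRNA and 47200000, 15600000 and 14900000 under vehicle, so 1 FPKM rested on 14.9 to 47.2 fragments per kilobase, and vehicle replicate 1 stood apart in depth. STAT3, the siRNA's target, stood at 10.5, 10.9 and 10.8 FPKM under WB436B, at 2.98, 2.58 and 3.02 FPKM after the siRNA and at 16.4, 15.8 and 15.1 FPKM under vehicle. All 6 epithelial markers examined (EPCAM, CDH1, KRT7, KRT8, KRT18 and KRT19) were expressed. Their summed levels were 1100 to 1220 FPKM under WB436B, 1180 to 1260 after the siRNA and 1210 to 1270 under vehicle. These similar sums conceal opposite changes of single markers against vehicle. KRT19 fell under WB436B (log2 fold change -1.09) and after the siRNA (-0.50). KRT7, KRT8 and KRT18 rose under WB436B (0.80, 0.39 and 0.87) and after the siRNA (0.24, 0.93 and 0.48). EPCAM and CDH1 rose after the siRNA (0.35 and 0.40) and did not pass the test under WB436B (0.19 and 0.09). SMAD4, a gene known to be deleted in BxPC3, was listed at 0 in all 9 libraries. Markers of other cell types were low but differed between groups, and a few averaged at least 1 FPKM. These were COL1A1 (2.28 after the siRNA and 1.72 under vehicle), COL3A1 (1.22 after the siRNA) and CD14 (1.68 under vehicle). The 6 fibroblast markers summed to 0.721 to 0.881 FPKM under WB436B, 3.43 to 3.77 after the siRNA and 1.89 to 2.12 under vehicle, and the 4 leukocyte markers to 0.538 to 0.635 FPKM under WB436B, 1.25 to 1.39 after the siRNA and 1.89 to 2.92 under vehicle. The 3 endothelial markers summed to at most 0.568 FPKM under WB436B, 0.382 after the siRNA and 1.05 under vehicle. Their part in the results was not tested.

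All 57 transcripts were expressed in every group, and all 57 passed the filter for testing (at least 1 FPKM in at least 3 of 9 libraries). Group means ran from 4.97 FPKM (UTP15) to 455 FPKM (NPM1) under WB436B, from 2.71 (DDX10) to 240 (NPM1) after the siRNA, and from 2.35 (DDX10) to 221 (NPM1) under vehicle. The median member stood at 24.7 FPKM under WB436B, 14.8 after the siRNA and 10.5 under vehicle. The most abundant members after the siRNA and under vehicle were NPM1 (nucleophosmin, a histone and ribosomal protein chaperone), FBL (fibrillarin, the rRNA 2'-O-methyltransferase), NCL (nucleolin, which binds the rRNA precursor) and NOP10 (a small H/ACA protein). Under WB436B the helicase DDX21 (132 FPKM) stood above NOP10 (105 FPKM). Together NPM1, FBL, NCL and NOP10 made up 38.1 to 39.7% of the members' summed FPKM in WB436B libraries, 39.8 to 41.7% after the siRNA and 42.5 to 44.5% under vehicle. The spread within a group was small: the median coefficient of variation over members was 3.88% under WB436B, 4.17% after the siRNA and 4.47% under vehicle. The widest were NIP7 under WB436B (23.8%) and UTP15 after the siRNA (21.7%) and under vehicle (23.2%).

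**Figure D1:**
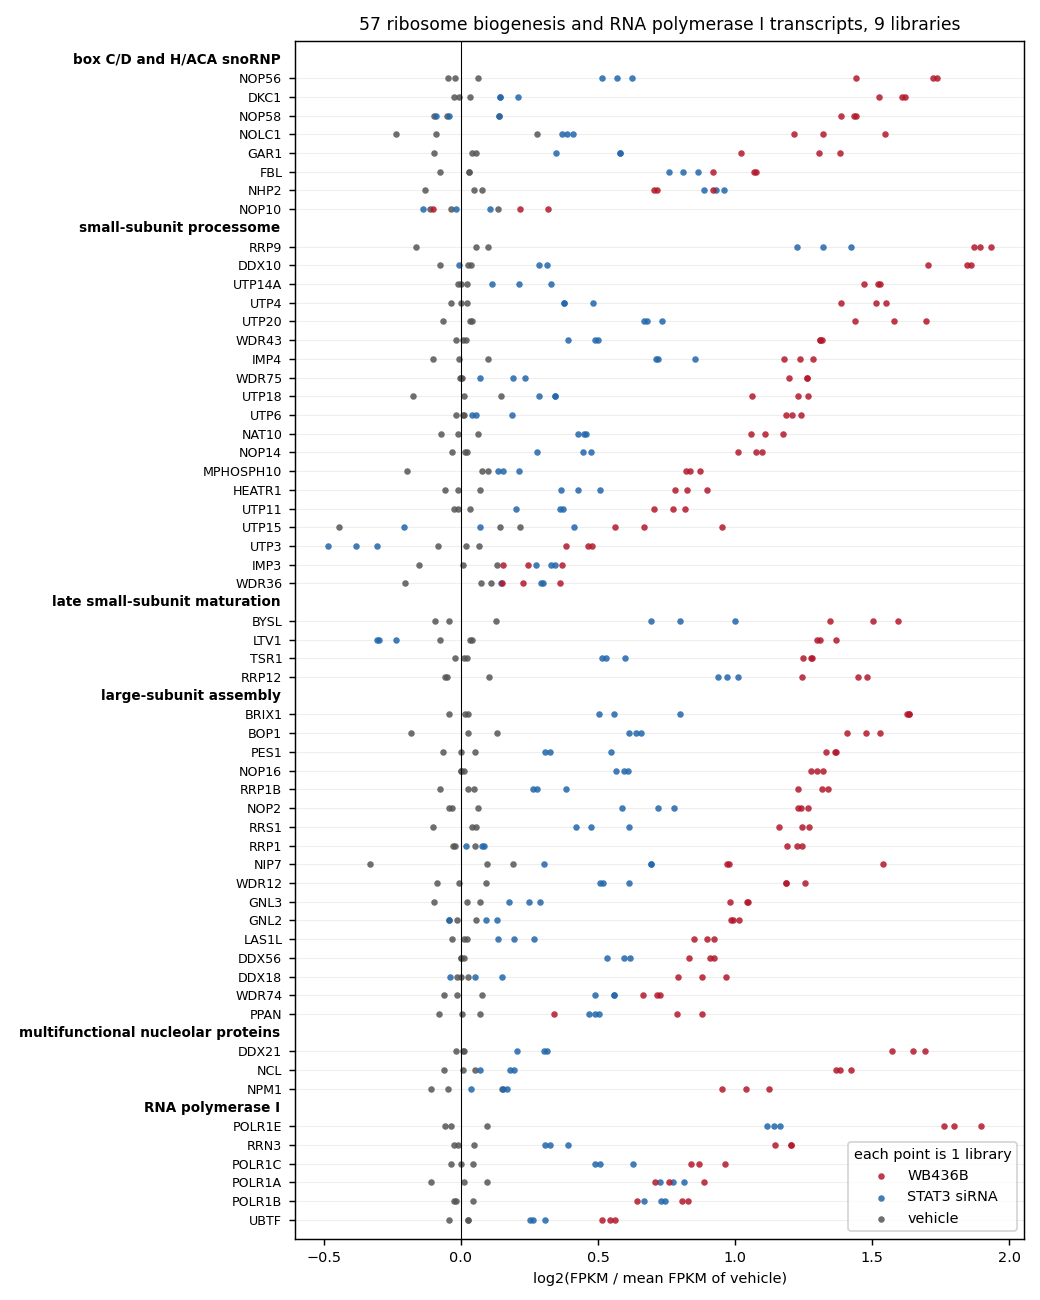
Each point is 1 library, placed by the log2 ratio of its FPKM to the mean FPKM of the vehicle libraries, with the 57 members in rows by subgroup. WB436B libraries (red) lie to the right of the vehicle libraries (grey) in 56 rows, all but NOP10, and STAT3 siRNA libraries (blue) lie to the right of vehicle in 47 rows and to the left in UTP3 and LTV1.

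The promoters of the members were also searched for short sequence motifs. The RefSeq promoter table (GRCh38.p14, 250 bases before to 50 after each gene's start) held 48 of the 57 members, without NOLC1, NOP58, MPHOSPH10, RRP12, DDX18, BOP1, RRP1B, RRS1 and POLR1E. The palindrome CACGTG, the E-box known to bind MYC with its partner MAX, was found in 16 of 48 member promoters (33.3%), against 10.3% of 8639 promoters of genes tested and 7.4% of all 27305 promoters. Among the subgroups it occurred in 9 of 18 small-subunit processome promoters, 2 of 3 of late small-subunit maturation, 2 of 6 of the snoRNPs and 3 of 13 of large-subunit assembly, and in none of 5 RNA polymerase I promoters or of the 3 of NCL, NPM1 and DDX21. The ETS motif CCGGAAG, searched on both strands, was found in 20 of 48 member promoters (41.7%), against 20.9% of promoters of genes tested. The STAT motif TTCNNNGAA, a palindrome, was found in 3 of 48 (DDX56, POLR1B and UTP11; 6.2%), against 6.3%. A match describes these letters only and is not a binding site.

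The windows below show the nearest upstream E-box of the 8 members in which the motif begins before the transcription start, in order of their increase under WB436B. Each holds 80 bases read 5′ to 3′ on the gene's strand, from RefSeq, GRCh38.p14, with CACGTG in capitals.
RRP9, chr3:51941904-51941983, minus strand: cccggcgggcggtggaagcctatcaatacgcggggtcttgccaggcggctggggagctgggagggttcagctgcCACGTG
UTP14A, chrX:129905914-129905993, plus strand: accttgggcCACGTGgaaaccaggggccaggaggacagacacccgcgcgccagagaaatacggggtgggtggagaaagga
UTP4, chr16:69132569-69132648, plus strand: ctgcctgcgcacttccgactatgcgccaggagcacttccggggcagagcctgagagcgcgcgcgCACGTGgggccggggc
UTP20, chr12:101280025-101280104, plus strand: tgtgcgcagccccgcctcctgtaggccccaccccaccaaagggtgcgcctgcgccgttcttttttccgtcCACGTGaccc
IMP4, chr2:130342657-130342736, plus strand: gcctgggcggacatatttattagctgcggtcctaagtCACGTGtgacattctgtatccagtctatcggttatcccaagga
UTP18, chr17:51260420-51260499, plus strand: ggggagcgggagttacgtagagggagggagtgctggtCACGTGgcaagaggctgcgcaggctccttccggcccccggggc
NAT10, chr11:34105549-34105628, plus strand: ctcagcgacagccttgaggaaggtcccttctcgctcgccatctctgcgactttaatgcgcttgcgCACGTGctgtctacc
NOP10, chr15:34343137-34343216, minus strand: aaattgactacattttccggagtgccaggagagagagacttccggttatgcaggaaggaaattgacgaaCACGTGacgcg
The motif starts 5 bases before the start in RRP9, 10 in UTP20, 11 in NOP10, 15 in NAT10, 16 in UTP4, 89 in UTP18, 203 in IMP4 and 241 in UTP14A. The list holds both the member with the largest increase under WB436B (RRP9) and the member that did not pass the test (NOP10). The 16 members with the motif had a median log2 fold change under WB436B of 1.23 (range 0.15 to 1.80), and the 32 without it 1.02 (0.22 to 1.62). After the siRNA the medians were 0.40 with it and 0.30 without it. These medians are descriptions and were not tested.

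Cells given WB436B were first set against vehicle-treated cells. Of the 57 members 56 rose, none fell, and NOP10 alone did not pass the test, while of all 12747 genes tested 65.9% passed, 24.9% rising and 41.1% falling. Of the members 37 rose at least 2-fold (log2 fold change of at least 1), as did 2.54% of all genes. The median difference of the members was 1.12 on the log2(FPKM + 1) scale, the scale of all fold changes given here in parentheses, and that of all genes tested was -0.13. In the same 56 members all 3 WB436B libraries lay above all 3 vehicle libraries, against 26.8% of all genes, and in none did they lie below, against 43.3%. Without vehicle replicate 1, the deepest library, 56 members also rose and none fell. The split of all calls moved with the scaling between libraries, to 4219 genes higher and 4228 lower with median-of-ratios scaling, against 3168 and 5234 as deposited, with 57 members higher. RNA of whole cultures cannot tell a change in the share of cells that carry a transcript from a change in its amount per cell. Summed over the members, FPKM averaged 2526 ± 50.9 under WB436B and 1154 ± 32.6 under vehicle (SD, n = 3 each).

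Among the snoRNP genes 7 of 8 rose under WB436B (median log2 fold change 1.25). DKC1, dyskerin, the pseudouridine synthase of H/ACA snoRNPs, stood at 63.5, 67.3 and 67.9 FPKM in WB436B libraries, against 21.7, 22.6 and 22.0 FPKM under vehicle. Its log2 fold change was 1.54 (SE 0.0414, adjusted p = 5.0e-08), and the groups were far apart. Its core partners moved by unequal amounts. GAR1 rose by 1.14 and NHP2 by 0.76, whereas NOP10 stood at 117, 109 and 87.4 FPKM under WB436B, against 91.4, 86.8 and 103 FPKM under vehicle. These NOP10 groups overlapped (0.15, 95% interval -0.12 to 0.41, adjusted p = 0.29), although the test was passed when WB436B replicate 3 was left out (0.27, adjusted p = 0.037) or the libraries were scaled by the median of ratios (0.31, adjusted p = 0.046). Over 19 alternatives its adjusted p ran from 0.037 to 0.87. NOP10 was the most abundant of these 4 core transcripts in every group. Of the box C/D core proteins, the members FBL, NOP56 and NOP58 rose by 1.02, 1.60 and 1.38. The snoRNP gene SNU13, which is not a member, did not pass (0.27, adjusted p = 0.15), and its groups overlapped. NOP56, a scaffold of the box C/D particle, reached 89.6, 73.9 and 90.6 FPKM under WB436B, against 26.8, 26.3 and 28.4 FPKM under vehicle. NOP58, its partner, stood at 54.0, 54.3 and 52.3 FPKM under WB436B, against 18.7, 19.3 and 22.0 FPKM under vehicle. FBL reached 212, 213 and 191 FPKM under WB436B, against 103, 103 and 95.9 FPKM under vehicle. All 3 were clear of their vehicle values. NOLC1, a chaperone of snoRNPs, rose by 1.35.

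All 19 small-subunit processome genes rose under WB436B (median 1.09). The largest increase of any member was in RRP9, a protein of the U3 snoRNP, which stood at 38.2, 37.1 and 36.6 FPKM under WB436B, against 10.4, 10.7 and 8.93 FPKM under vehicle. That was a 3.73-fold difference (log2 fold change 1.80, SE 0.0718, adjusted p = 2.4e-07). DDX10, an RNA helicase, stood at 7.66, 8.53 and 8.45 FPKM under WB436B, against 2.41, 2.39 and 2.23 FPKM under vehicle, where it was the least abundant member (1.46). UTP14A, which recruits a helicase to the U3 snoRNP, stood at 33.5, 34.7 and 34.9 FPKM under WB436B, against 12.3, 12.1 and 12.0 FPKM under vehicle (1.43). Its retrotransposed copy UTP14C reached at most 3.72 FPKM in any library, and how fragments of the pair were divided is not given in the sources used here. UTP4 rose by 1.42, UTP20 by 1.30 and WDR43 by 1.26. Members of known subcomplexes varied. The 5 members in UTP-A (HEATR1, UTP4, UTP15, WDR43 and WDR75), which is also tied to rRNA transcription, spanned 0.59 to 1.42. The 3 members in UTP-B (UTP6, UTP18 and WDR36) spanned 0.22 to 1.11. The other UTP-B proteins, which are not members, also rose: WDR3 by 1.38, PWP2 by 0.79 and TBL3 by 0.45. In the MPP10 complex IMP4 rose by 1.15 and MPHOSPH10 by 0.76, and its other protein IMP3 by 0.24. NAT10, the acetyltransferase of rRNA and tRNA cytidines, rose by 1.07. UTP3, a processome component also known as SAS10, rose less, standing at 29.8, 29.5 and 27.9 FPKM under WB436B, against 22.4, 20.2 and 21.7 FPKM under vehicle (0.42, adjusted p = 0.00024). UTP15 was the least abundant member under WB436B and spread widely, at 4.40, 4.73 and 5.77 FPKM under WB436B, against 2.19, 3.46 and 3.29 FPKM under vehicle (0.59, adjusted p = 0.011).

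The 2 smallest processome calls were lost when single libraries were left out. WDR36 stood at 7.52, 7.93 and 8.70 FPKM under WB436B, against 7.31, 7.13 and 5.89 FPKM under vehicle (0.22, adjusted p = 0.047). That call was lost without WB436B replicate 2 or 3 (adjusted p = 0.085 and 0.14), without vehicle replicate 2 or 3 (0.053 and 0.14) and without siRNA replicate 1 or 3 (0.062 and 0.060), the siRNA libraries entering through the shared estimate of spread and the set of genes tested. Over the alternatives its adjusted p ran from 0.0050 to 0.14. IMP3 (0.24, adjusted p = 0.023) lost its call without WB436B replicate 1 (0.18, adjusted p = 0.078) or vehicle replicate 2 (0.17, adjusted p = 0.075), with a range of 0.0023 to 0.078 over the alternatives. Of the exon bases of IMP3, 59.3% are shared with other gene models, SNX33 on the opposite strand among them.

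All 4 genes of late small-subunit maturation rose, each at least 2-fold (1.16 to 1.34). LTV1, which leaves the pre-ribosome late in the cytoplasm, reached 66.9, 70.2 and 67.4 FPKM under WB436B, against 25.8, 28.0 and 27.8 FPKM under vehicle (1.29, SE 0.0454, adjusted p = 1.4e-07). Of its exon bases 34.8% are shared with other gene models. BYSL, bystin, stood at 14.9, 17.7 and 16.6 FPKM under WB436B, against 5.49, 5.69 and 6.41 FPKM under vehicle (1.34). The GTPase-like factor TSR1 stood at 34.0, 33.2 and 33.9 FPKM under WB436B, against 13.8, 14.1 and 14.2 FPKM under vehicle (1.21). RRP12, known for its part in export of the subunits, stood at 8.87, 7.70 and 9.07 FPKM under WB436B, against 3.49, 3.12 and 3.14 FPKM under vehicle (1.16). No group overlapped another in these 4 genes.

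All 17 large-subunit assembly genes rose (median 1.10, range 0.61 to 1.53), 10 of them at least 2-fold. BRIX1, an early assembly factor, stood at 28.1, 28.2 and 28.2 FPKM under WB436B, against 8.82, 9.19 and 9.25 FPKM under vehicle (1.53, SE 0.0687, adjusted p = 4.2e-07). The members of the PeBoW complex, which acts in processing of the large-subunit rRNA, all rose at least 2-fold. BOP1 stood at 29.5, 28.1 and 30.6 FPKM under WB436B, against 11.6, 10.8 and 9.34 FPKM under vehicle (1.40). PES1, pescadillo, stood at 35.0, 35.9 and 35.8 FPKM under WB436B, against 13.9, 14.4 and 13.3 FPKM under vehicle (1.30), and WDR12 rose by 1.03. NOP2, an rRNA cytosine methyltransferase, rose by 1.19, and 54.4% of its exon bases are shared with another gene model on the same strand. GNL3 (nucleostemin) rose by 1.00 and its relative GNL2 by 0.93, and LAS1L, of the endonuclease complex that cuts the internal spacer, by 0.85. The smallest increase was in PPAN (0.61), which shares 56.0% of its exon bases with the readthrough gene PPAN-P2RY11. Under WB436B, PPAN stood at 13.1, 9.01 and 12.3 FPKM and PPAN-P2RY11 at 1.2, 4.32 and 0.986 FPKM. Replicate 2 was thus the lowest in PPAN and the highest in PPAN-P2RY11. Whether fragments were exchanged between them was not tested.

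The multifunctional nucleolar proteins were among the most abundant members and all 3 rose at least 2-fold. DDX21, a helicase that acts in rRNA transcription and processing, stood at 126, 133 and 137 FPKM under WB436B, against 42.6, 42.7 and 41.9 FPKM under vehicle (1.62, SE 0.0457, adjusted p = 5.8e-08). NCL stood at 214, 222 and 216 FPKM under WB436B, against 79.4, 83.3 and 86.0 FPKM under vehicle (1.38). NPM1 stood at 482, 428 and 454 FPKM under WB436B, against 205, 214 and 245 FPKM under vehicle (1.04). Fragments can be exchanged between NPM1 and its 44 pseudogenes in the table, whose summed FPKM averaged 125 ± 12.5 under WB436B and 58.9 ± 2.79 under vehicle.

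All 6 RNA polymerase I genes rose, with the lowest subgroup median (0.70). POLR1E, a subunit specific to this polymerase, stood apart at 31.1, 33.3 and 30.3 FPKM under WB436B, against 8.58, 9.54 and 8.71 FPKM under vehicle (1.71, SE 0.0529, adjusted p = 8.5e-08). RRN3, the initiation factor TIF-IA, reached 26.3, 27.4 and 27.4 FPKM under WB436B, against 11.8, 11.7 and 12.3 FPKM under vehicle (1.12). The pseudogenes RRN3P1, RRN3P2 and RRN3P3 summed to 4.18 ± 0.0773 FPKM under WB436B and 6.63 ± 0.205 under vehicle. The largest subunits POLR1A and POLR1B rose by 0.69 and 0.66, and POLR1C, which RNA polymerase III also uses, by 0.70. UBTF, the factor that binds the rRNA gene promoter, rose by 0.50, standing at 15.5, 15.0 and 15.3 FPKM under WB436B, against 10.7, 10.2 and 10.7 FPKM under vehicle. POLR1C stood at 5.51, 5.17 and 5.06 FPKM under WB436B, against 2.76, 2.83 and 2.92 FPKM under vehicle, and was the least abundant of these 6 transcripts in every group.

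**Figure D2:**
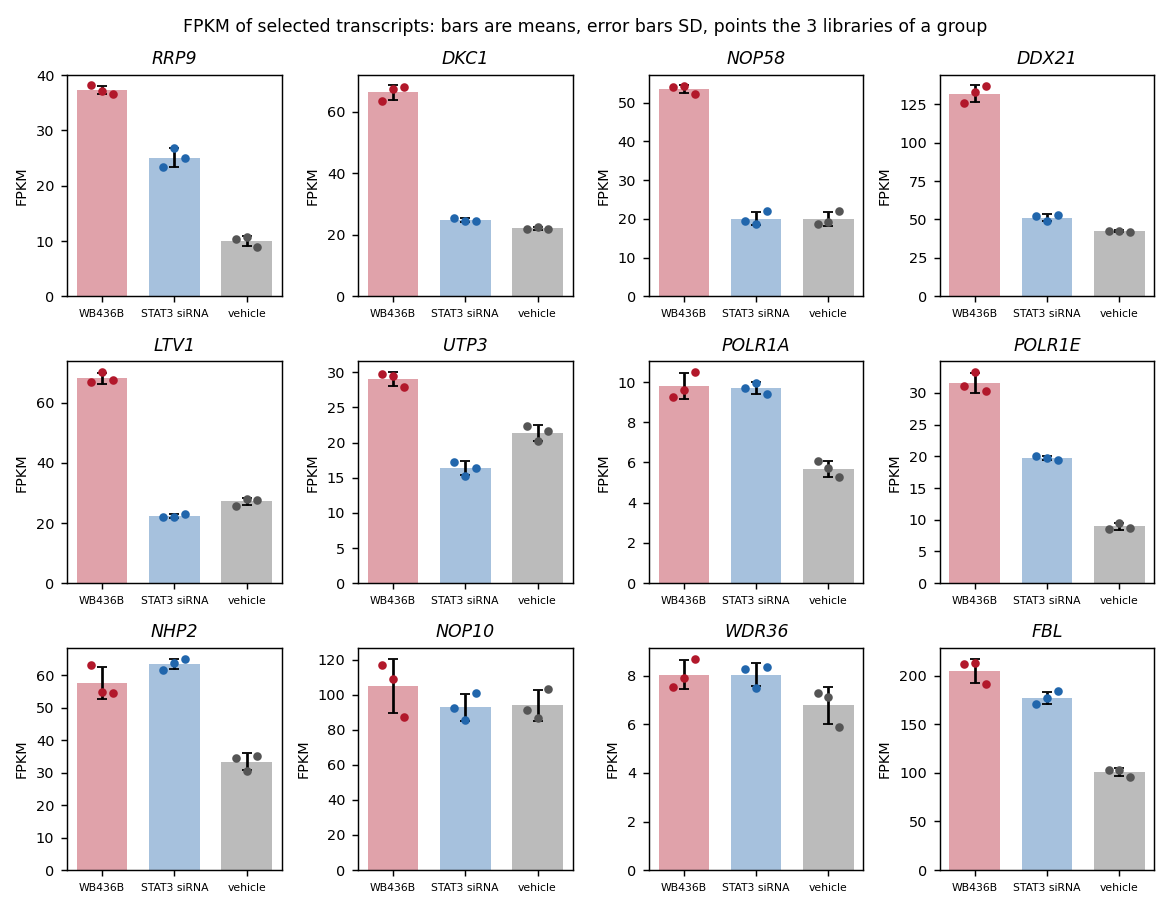
FPKM of 12 members, with bars for the mean of a group, error bars for the SD and points for its 3 libraries. RRP9 and POLR1E are highest under WB436B, intermediate after the siRNA and lowest under vehicle, DKC1, NOP58 and DDX21 are high under WB436B and near vehicle after the siRNA, POLR1A and NHP2 are above vehicle under both treatments, and LTV1 and UTP3 are higher under WB436B and lower after the siRNA.

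Cells given the STAT3 siRNA were next set against the same vehicle libraries. Of the 57 members 44 rose, 2 fell and 11 did not pass the test, while of all genes tested 52.1% passed, 29.8% rising and 22.3% falling. In this comparison 2 members, RRP9 and POLR1E, rose at least 2-fold, and 1.04% of all genes did so. The median member stood at 0.39 on the log2 scale and the median of all genes at 0.06. All 3 siRNA libraries lay above all 3 vehicle libraries in 47 members and below them in 2, against 35.1% and 25.3% of all genes. Without vehicle replicate 1, 41 members rose and 2 fell. Summed FPKM of the members averaged 1479 ± 27.6 after the siRNA and 1154 ± 32.6 under vehicle (SD, n = 3 each). Both comparisons share the vehicle libraries, so their values are set side by side and no overlap between them is counted.

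All 6 RNA polymerase I genes rose after the siRNA (median 0.52). POLR1E stood at 20.0, 19.7 and 19.4 FPKM after the siRNA, against 8.58, 9.54 and 8.71 FPKM under vehicle (1.06, SE 0.0529, adjusted p = 2e-06). The catalytic subunit POLR1A stood at 9.72, 9.97 and 9.39 FPKM after the siRNA, against 6.07, 5.72 and 5.26 FPKM under vehicle (0.68), and POLR1B at 7.82, 8.16 and 8.24 FPKM after the siRNA, against 4.86, 5.07 and 4.83 FPKM under vehicle (0.62). POLR1C rose by 0.42, RRN3 by 0.31 and UBTF by 0.25.

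In the small-subunit processome 13 of 19 genes rose, 1 fell and 5 did not pass the test (median 0.29). RRP9 again led, at 23.4, 26.8 and 25.0 FPKM after the siRNA, against 10.4, 10.7 and 8.93 FPKM under vehicle (1.25, SE 0.0718, adjusted p = 4e-06). IMP4 stood at 14.4, 15.8 and 14.3 FPKM after the siRNA, against 9.37, 8.70 and 8.14 FPKM under vehicle (0.70). UTP20, a large scaffold protein, stood at 4.62, 4.81 and 4.59 FPKM after the siRNA, against 2.96, 2.97 and 2.76 FPKM under vehicle (0.54). WDR43 rose by 0.43, NAT10 by 0.42 and UTP4 by 0.39. UTP3 fell to 17.3, 15.3 and 16.4 FPKM after the siRNA, against 22.4, 20.2 and 21.7 FPKM under vehicle (-0.37, SE 0.0579, adjusted p = 0.00084). The 5 that did not pass were UTP6 (0.08, 95% interval -0.03 to 0.19), UTP15 (0.09, -0.28 to 0.46), DDX10 (0.14, -0.03 to 0.32), MPHOSPH10 (0.15, -0.01 to 0.31) and WDR36 (0.22, 0.03 to 0.42, whose interval is not adjusted over genes). UTP6 stood at 6.65, 6.02 and 6.07 FPKM after the siRNA, against 5.89, 5.78 and 5.88 FPKM under vehicle, and MPHOSPH10 at 6.78, 6.86 and 7.15 FPKM after the siRNA, against 5.39, 6.60 and 6.50 FPKM under vehicle. In both, the groups were close without overlapping, whereas the values of UTP15 (3.13, 3.97 and 2.58 FPKM after the siRNA, against 2.19, 3.46 and 3.29 FPKM under vehicle) and DDX10 (2.92, 2.34 and 2.86 FPKM after the siRNA, against 2.41, 2.39 and 2.23 FPKM under vehicle) overlapped. DDX10 passed without siRNA replicate 2 (0.22, adjusted p = 0.025), and WDR36 passed without vehicle replicate 1 (0.27, adjusted p = 0.045).

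In late small-subunit maturation RRP12 stood at 6.22, 6.55 and 6.36 FPKM after the siRNA, against 3.49, 3.12 and 3.14 FPKM under vehicle (0.80), and BYSL at 11.7, 9.48 and 10.2 FPKM after the siRNA, against 5.49, 5.69 and 6.41 FPKM under vehicle (0.74). TSR1 rose by 0.51, while LTV1 fell to 22.0, 22.1 and 23.1 FPKM after the siRNA, against 25.8, 28.0 and 27.8 FPKM under vehicle (-0.27, SE 0.0454, adjusted p = 0.0013). Large-subunit assembly genes rose in 14 of 17 (median 0.45), and none fell. NOP2 stood at 22.9, 23.8 and 20.9 FPKM after the siRNA, against 13.6, 13.5 and 14.5 FPKM under vehicle (0.66). BOP1 stood at 16.5, 16.7 and 16.2 FPKM after the siRNA, against 11.6, 10.8 and 9.34 FPKM under vehicle (0.60), and BRIX1 at 13.4, 12.9 and 15.8 FPKM after the siRNA, against 8.82, 9.19 and 9.25 FPKM under vehicle (0.57). The 3 that did not pass were DDX18 (0.05, 95% interval -0.09 to 0.18), RRP1 (0.05, -0.04 to 0.15) and GNL2 (0.05, -0.07 to 0.17). DDX18 stood at 12.3, 10.8 and 11.5 FPKM after the siRNA, against 11.1, 11.3 and 11.0 FPKM under vehicle, and RRP1 at 8.61, 8.66 and 8.26 FPKM after the siRNA, against 7.99, 8.04 and 8.45 FPKM under vehicle. GNL2 stood at 11.5, 11.2 and 10.2 FPKM after the siRNA, against 10.2, 10.4 and 10.9 FPKM under vehicle. The groups overlapped in all 3, while under WB436B the same transcripts rose by 0.82, 1.13 and 0.93. RRP1B, the paralog of RRP1, rose by 0.28.

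The snoRNP genes rose in 6 of 8 after the siRNA (median 0.42). NHP2 stood at 61.7, 63.6 and 64.9 FPKM after the siRNA, against 34.5, 30.5 and 35.2 FPKM under vehicle (0.91, SE 0.0732, adjusted p = 2.2e-05), and FBL at 171, 177 and 184 FPKM after the siRNA, against 103, 103 and 95.9 FPKM under vehicle (0.81). Of the exon bases of NHP2, 27.4% are shared with RMND5B on the opposite strand. NOP56 stood at 41.9, 38.9 and 40.4 FPKM after the siRNA, against 26.8, 26.3 and 28.4 FPKM under vehicle (0.56). DKC1 stood at 25.5, 24.4 and 24.4 FPKM after the siRNA, against 21.7, 22.6 and 22.0 FPKM under vehicle (0.16, adjusted p = 0.013). NOP58 stood at 19.4, 18.8 and 22.0 FPKM after the siRNA, against 18.7, 19.3 and 22.0 FPKM under vehicle, a difference of 0.00 with a 95% interval of -0.17 to 0.17. NOP10 stood at 92.6, 85.3 and 101 FPKM after the siRNA, against 91.4, 86.8 and 103 FPKM under vehicle (-0.01, -0.28 to 0.25). The values of these 2 transcripts overlapped. Of the multifunctional proteins DDX21 stood at 52.3, 48.8 and 52.7 FPKM after the siRNA, against 42.6, 42.7 and 41.9 FPKM under vehicle (0.27), and NCL at 93.9, 87.1 and 94.9 FPKM after the siRNA, against 79.4, 83.3 and 86.0 FPKM under vehicle (0.15). NPM1 stood at 246, 227 and 248 FPKM after the siRNA, against 205, 214 and 245 FPKM under vehicle, and did not pass the test (0.12, 95% interval -0.05 to 0.29, adjusted p = 0.22). It passed without vehicle replicate 3 (0.20, adjusted p = 0.039) and with equal totals (0.17, adjusted p = 0.038), in a range of 0.038 to 0.62. Its pseudogenes summed to 68.0 ± 5.18 FPKM after the siRNA.

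Several weak calls after the siRNA lay near the threshold and were lost when single libraries were left out. NCL (adjusted p = 0.029) lost its call without siRNA replicate 1 or 3 (0.092 and 0.099) or vehicle replicate 1 or 2 (0.096 and 0.065), and WDR75 without siRNA replicate 1 or 3 (0.10 and 0.089) or any vehicle replicate (0.060 to 0.073). NOLC1 lost its call without any siRNA replicate (0.062 to 0.074) or vehicle replicate 1 or 3 (0.092 and 0.082), and NIP7 without siRNA replicate 2 or 3 (0.11 each) or vehicle replicate 1 or 2 (0.12 and 0.058). Over the 19 alternatives the adjusted p ran from 0.0045 to 0.20 for NCL, 0.0095 to 0.19 for WDR75, 0.0030 to 0.092 for NOLC1 and 0.016 to 0.12 for NIP7.

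**Figure D3:**
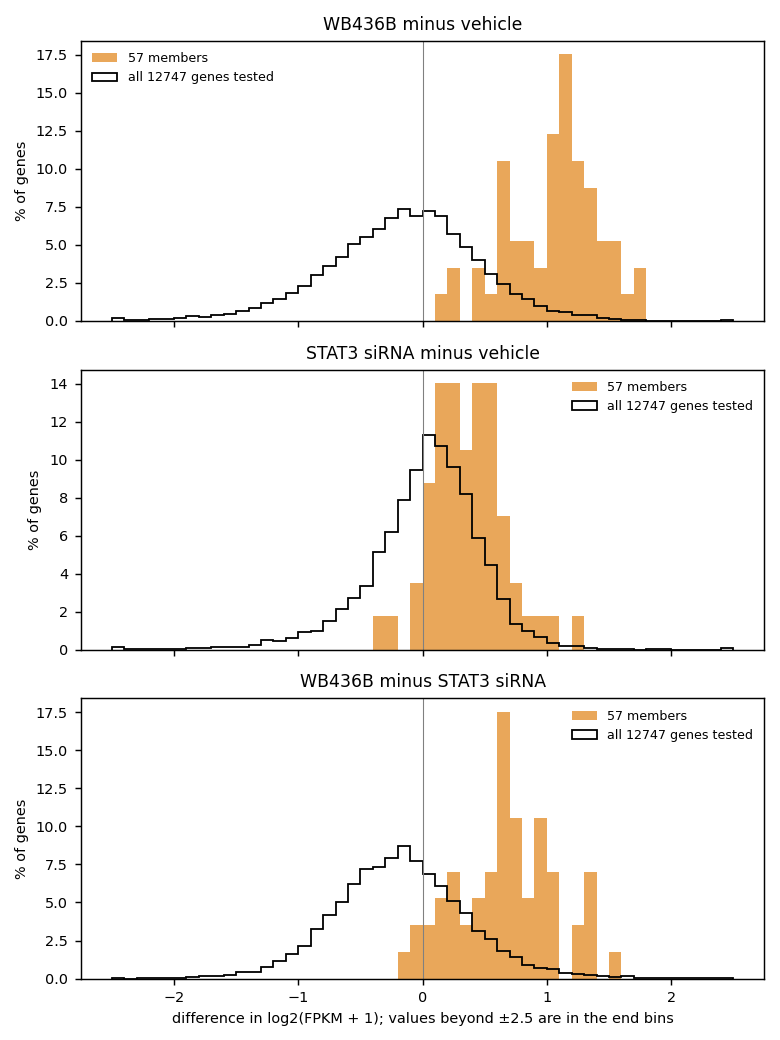
Percentage of genes in bins of 0.1 of the difference in log2(FPKM + 1), for the 57 members (filled) and all 12747 genes tested (line), in the 3 comparisons. The members centre on 1.12 for WB436B minus vehicle, 0.39 for the siRNA minus vehicle and 0.69 for WB436B minus the siRNA, against medians of all genes of -0.13, 0.06 and -0.19.

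The direct comparison of WB436B with the siRNA tests the difference between both treatments. Of the 57 members 50 were higher under WB436B, none was lower and 7 did not pass the test, while of all genes tested 64.1% passed, 20% being higher and 44.1% lower under WB436B. The median member differed by 0.69 on the log2 scale, against -0.19 for all genes. At least 2-fold differences were found in 12 members and in 2.09% of all genes. In 50 members all 3 WB436B libraries lay above all 3 siRNA libraries, against 22.7% of all genes, and in none did they all lie below, against 47.5%. The split of all calls was 2554 higher and 5621 lower as deposited, and 4019 and 3916 with median-of-ratios scaling, which gave 54 members higher and none lower.

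The widest difference was in LTV1, at 66.9, 70.2 and 67.4 FPKM under WB436B and 22.0, 22.1 and 23.1 FPKM after the siRNA (1.56, adjusted p = 1.1e-07). It was followed by DKC1, at 63.5, 67.3 and 67.9 FPKM under WB436B and 25.5, 24.4 and 24.4 FPKM after the siRNA (1.38), and NOP58, at 54.0, 54.3 and 52.3 FPKM under WB436B and 19.4, 18.8 and 22.0 FPKM after the siRNA (1.38). DDX21 differed by 1.35, DDX10 by 1.31, NCL and UTP14A by 1.23 each, and NPM1 by 0.92. The multifunctional nucleolar proteins had the highest subgroup median (1.23), followed by the snoRNPs (0.82).

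RNA polymerase I had the lowest subgroup median (0.27), and 4 of its 6 genes were higher under WB436B. Its largest subunits did not pass: POLR1A stood at 9.28, 9.60 and 10.5 FPKM under WB436B and 9.72, 9.97 and 9.39 FPKM after the siRNA (0.01, 95% interval -0.13 to 0.16), and POLR1B at 7.67, 8.60 and 8.74 FPKM under WB436B and 7.82, 8.16 and 8.24 FPKM after the siRNA (0.04, -0.09 to 0.17). Scaled by the median of ratios, both were called higher under WB436B (0.23, adjusted p = 0.014, and 0.25, adjusted p = 0.0036), and POLR1B also under quantile normalization (0.14, adjusted p = 0.044). Over the alternatives the adjusted p reached 0.97 for POLR1A and 0.92 for POLR1B. RRN3 (0.80), POLR1E (0.65), POLR1C (0.29) and UBTF (0.25) were higher under WB436B.

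The other members that did not pass were NHP2 (-0.14, 95% interval -0.31 to 0.03), IMP3 (-0.05, -0.23 to 0.12), WDR36 (0.00, -0.20 to 0.19), NOP10 (0.16, -0.10 to 0.43) and PPAN (0.17, -0.10 to 0.44). NHP2 was called lower under WB436B without WB436B replicate 1 (-0.21, adjusted p = 0.026), and NOP10 and PPAN were called higher without WB436B replicate 3 (0.28, adjusted p = 0.031) and replicate 2 (0.32, adjusted p = 0.0023). Among the calls, that of UTP15 was lost without WB436B replicate 3 (adjusted p = 0.082) or siRNA replicate 1 or 3 (0.060 and 0.083). WDR74 lost its call without WB436B replicate 1 (0.051) or siRNA replicate 1 (0.060), and NIP7 likewise (0.072 and 0.085).

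**Figure D4:**
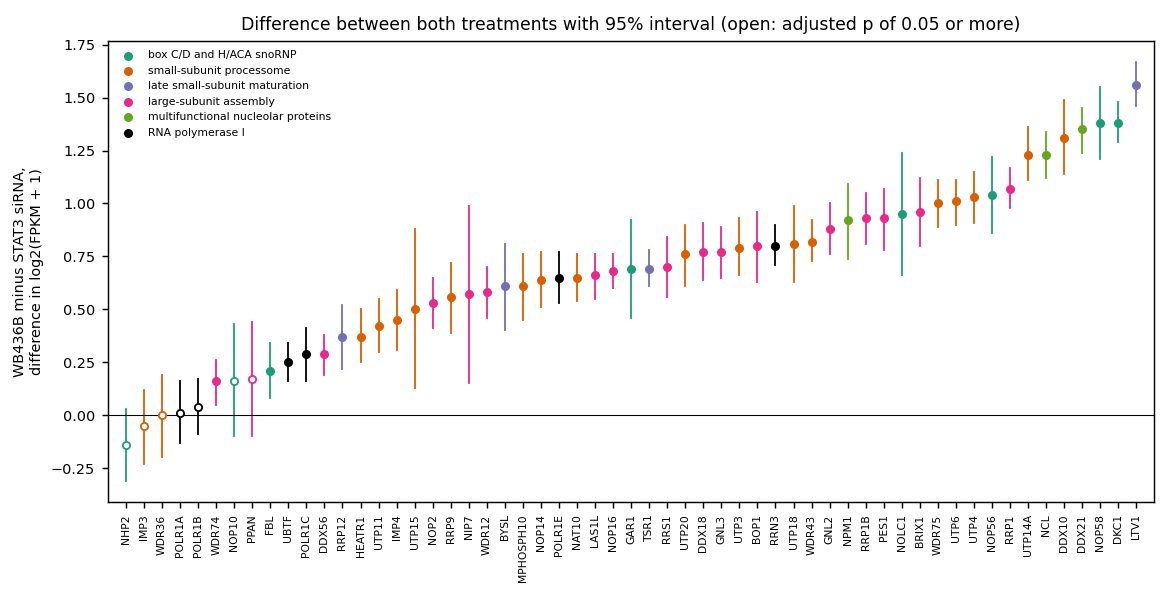
Difference between WB436B and the STAT3 siRNA in log2(FPKM + 1) for each of the 57 members, with its 95% interval, ordered by size and coloured by subgroup; open circles did not pass the test. The order runs from NHP2 (-0.14) to LTV1 (1.56), with POLR1A and POLR1B near 0 and DKC1, NOP58, DDX21 and NCL toward the upper end.

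A further 127 symbols of the same pathway were examined, of which 126 were in the table and tested. Under WB436B 105 rose, 4 fell and 17 did not pass (median 0.65). After the siRNA 65 rose, 11 fell and 50 did not pass (median 0.25), and in the direct comparison 83 were higher under WB436B and 7 lower. The shares higher were 83.3%, 51.6% and 65.9%, and those of all genes in the same comparisons 24.9%, 29.8% and 20%. Other large-subunit genes rose in 40 of 46 under WB436B. By smallest p these were MRTO4, a ribosome-stalk assembly factor, at 77.7 ± 1.55 FPKM under WB436B, against 24.3 ± 0.223 FPKM under vehicle (1.64), GTPBP4 (1.30) and NOC2L (1.19). Other small-subunit genes rose in 35 of 40, with RIOK1 (0.97), ESF1 (1.42) and AATF (1.06) at the smallest p. Other snoRNP and snoRNP assembly genes rose in 6 of 9, including both ATPases RUVBL1 (1.11) and RUVBL2 (0.97). Exosome and rRNA-trimming genes rose in 13 of 15 with a lower median (0.44), including the exonuclease XRN2 (0.44), and EXOSC6 fell by 0.36. Other RNA polymerase I genes, among them subunits shared with other polymerases, rose in 11 of 16 (median 0.30), and TAF1C, of the promoter selectivity factor, fell by 0.45. The other pair that fell was RIOK3, at 12.9 FPKM under WB436B, against 19.3 FPKM under vehicle (-0.55), and NOP53, at 15.7 FPKM under WB436B, against 23.5 FPKM under vehicle (-0.55).

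After the siRNA these lists were split further. Other RNA polymerase I genes rose in 2 of 16 and fell in 2: POLR2F, a shared subunit, rose by 0.46, whereas TCOF1, treacle, a nucleolar factor of rRNA gene transcription, stood at 10.8 ± 0.055 FPKM after the siRNA, against 14.4 ± 0.208 FPKM under vehicle (-0.38, adjusted p = 4.3e-05), and the termination factor gene TTF1 fell by 0.26. Under WB436B, TCOF1 rose to 28.2 ± 0.298 FPKM (0.93). BMS1, a processome GTPase, moved likewise, at 25.2 FPKM under WB436B, 7.26 after the siRNA and 12.3 under vehicle, with log2 fold changes of 0.98 and -0.69. Other small-subunit genes rose in 26 of 40 and fell in 3, with DDX49 (0.96) and RIOK1 (0.67) at the smallest p. Other large-subunit genes rose in 23 of 46 and fell in 6, with MRTO4 (0.76), NOC2L (0.65) and GNL3L (0.65) at the smallest p. Other snoRNP and snoRNP assembly genes rose in 7 of 9, with RUVBL2 at 0.60, ZNHIT6 at 0.53 and RUVBL1 at 0.35. Exosome genes rose in 7 of 15, with EXOSC5 at 0.81, EXOSC1 at 0.57 and EXOSC2 at 1.01.

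MYC, a known activator of this pathway, varied widely within the siRNA and vehicle groups, and the source of that spread, in the cells or in the assignment of fragments, was not tested. It stood at 14.1, 13.1 and 14.8 FPKM under WB436B, 10.5, 11.3 and 3.49 FPKM after the siRNA and 2.93, 4.30 and 13.9 FPKM under vehicle. The vehicle libraries overlapped both other groups, and neither WB436B (1.15, SE 0.520, adjusted p = 0.082) nor the siRNA (0.34, adjusted p = 0.61) differed from vehicle beyond that spread. The difference between WB436B and the siRNA was 0.80 (adjusted p = 0.21), although all 3 WB436B libraries lay above all 3 siRNA libraries, as in 22.7% of all genes. The members' summed FPKM in the same libraries was 2584, 2503 and 2490 under WB436B, 1486, 1449 and 1503 after the siRNA and 1127, 1144 and 1190 under vehicle. Vehicle replicate 3, the highest in MYC of its group, had the highest vehicle sum. The siRNA replicate 3, the lowest in MYC of its group, had the highest siRNA sum. These orders did not hold when the sums were taken as percentages of the library's total FPKM. The percentages were 0.409, 0.395 and 0.393 under vehicle and 0.536, 0.525 and 0.532 after the siRNA, in replicate order. A relation between MYC and the members was not tested.

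Annotated within the genes of 9 members are 28 small nucleolar RNAs. Their FPKM was at most 8.11, 6 passed the filter and 2 were listed at 0 in every library, so the snoRNAs that these proteins carry were not followed further.

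An exact two-sided permutation test of 3 against 3 libraries cannot go below p = 0.1. It reaches that value only where the groups do not overlap, so its counts repeat those given above and are no further support. They were 56 members in WB436B against vehicle, 49 in the siRNA against vehicle and 50 in WB436B against the siRNA. Of all genes tested, 26.8% lay wholly above and 43.3% wholly below in WB436B against vehicle. The shares were 35.1% and 25.3% in the siRNA against vehicle, and 22.7% and 47.5% in WB436B against the siRNA.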

How the data were processed

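The authors deposited FPKM values, 1 table with a column per library for 9 libraries and 3 empty columns. Per the submitters' processing notes, Bowtie 0.12.2 and the build mm8 were used. That is a mouse build while the identifiers are human, so the authors' build is uncertain. Which program made the FPKM values is not given in the sources used here, nor is the read length or use of strand. Because the unit is relative to the library total, abundant genes that change shift all others.

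The 12747 genes (21.0%) that reached 1 FPKM in 3 or more libraries were tested as log2(FPKM + 1), which understates changes of low genes. The model, fitted by limma 3.58.1 (R 4.3.3) with a mean-variance trend, had a mean per group over all 9 libraries and 6 residual degrees of freedom. Calls were two-sided at a Benjamini-Hochberg adjusted p below 0.05 over all genes. SE is the standard error of the log2 fold change, and intervals are 95%. The fit was also run on simulated data with independent noise and few changed genes, which does not show that the calls hold in these data. GENCODE 29 gave gene models (96.5% of identifiers matched). The step that 1 fragment makes in the values of single-transcript genes gave an estimate of depth, which bears on counting error only.

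Members, subgroups, lists and tests were chosen with earlier results of these data known. Every member could be named. Values per library were given for up to 3 called members per subgroup with the largest changes in a comparison against vehicle, for a short list always named, for extremes of level, and for members not called or called against the majority. Up to 3 genes were named per further list, by smallest p. EXOSC6, TAF1C, RIOK3, NOP53, WDR3, PWP2, TBL3 and SNU13 were named after their values were seen.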

Additional observations from a re-analysis of the deposited data

How the results depend on the processing

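Counts of called members and of all genes called, the members' medians and each member's fold changes were recomputed under 19 alternatives (18 for UTP15, which the higher filter removed), and no other result was: a pseudocount of 0.1, no filter, a filter of 5 FPKM, 3 scalings, a fit restricted to 2 groups, a fit with no variance trend, the replicate number as a block, an adjusted p below 0.01, and each of the 9 libraries left out. Under WB436B 53 to 57 members were higher and none lower, after the siRNA 35 to 46 were higher and 2 lower, and in the direct comparison 46 to 54 were higher under WB436B. In that comparison 1 member (NHP2) was lower under quantile normalization (-0.32), and leaving out single libraries gave 0 to 1 lower. Of 3246 log2 fold changes of single members, 70 lost the call, 16 gained it and 0 changed sign with a call, and the cause was not tested. With median-of-ratios scaling 37 members rose after the siRNA, without DKC1, NOLC1, UTP14A, WDR75, NIP7, LAS1L and NCL. Median-of-ratios scaling moved the median of all genes under WB436B to 0.00, quantile normalization to 0.03, and the members' median to 1.27 and 1.08. The share of all calls that were higher was 37.7% as reported, 49.9% and 53.0% with these scalings, 42.8% with equal totals and 50.4% with the filter of 5 FPKM. In the direct comparison it was 31.2%, 50.6% with median-of-ratios, 50% with quantile normalization and 44.2% with the filter of 5 FPKM. All genes lower under WB436B numbered 5234 of 12747 tested as reported and 2412 of 7042 with that filter. In the direct comparison they numbered 5621 and 2583 of the same totals, and 3585 with quantile normalization. The cause of the drop was not tested. After the siRNA 3800 higher and 2838 lower became 2382 and 1756 with the filter of 5 FPKM. In the direct comparison 2554 higher became 4019 with median-of-ratios. Deviations from the group means correlated at -0.085 to 0.158 between libraries of the same replicate number. Between siRNA and vehicle these values were 0.042, 0.119 and 0.158, against -0.124 to 0.014 for libraries of unlike number. Between WB436B and either other group they were at most 0.038. Whether the numbers pair the libraries was not settled. With the replicate block 55, 41 and 50 members were higher in the comparisons of WB436B with vehicle, siRNA with vehicle and WB436B with siRNA.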
